A study of Mus musculus with 9 samples.

Results

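The tumor necrosis factor (TNF) superfamily and the TNF receptor superfamily were examined in the colon RNA of 9 mice. Members were the symbols that begin with Tnfsf or Tnfrsf and a digit, except Tnfrsf17 and Tnfrsf19, together with Tnf, Lta, Ltb, Ltbr, Fas, Fasl, Cd27, Cd40, Cd40lg, Cd70, Ngfr, Eda and Edar. This rule took 42 of the 21498 gene symbols, 18 ligands and 24 receptors, and each of them had a value above 0 in at least 1 mouse. The mice were male ICR mice, an outbred strain, 5 weeks old at the start, with 3 mice in each of 3 groups. Control mice received neither carcinogen nor antibody, and their sample was normal colorectal mucosa. IgG mice received 10 mg/kg of azoxymethane (AOM), a colon carcinogen, and then 3 cycles of dextran sulfate sodium (DSS), an agent that damages colon epithelium, given in their water at 2% for 7 days and then at 1.5% for 5 days in each later cycle. They were injected with 1.5 mg/kg of control IgG Ab during the DSS cycles, whereas anti-A9 mice received the same AOM and DSS with 1.5 mg/kg of a neutralizing rabbit polyclonal Ab against S100a9. Samples of both AOM/DSS groups were taken at the end of week 18 and were labelled as colorectal adenocarcinoma, although the text of the study calls the anti-S100a9 samples colon mucosa. Control mice received no DSS either. The week of their sampling is not given in the sources used here, so whether their age at sampling differed is unknown. A group without AOM and DSS that received antibody was not analysed here, so the IgG Ab itself cannot be told apart from AOM and DSS. Expression is given in FPKM, fragments scaled by the length of the gene and the depth of the library. The FPKM values of a mouse summed to 308377 to 408811, and how many fragments stood behind them is not known, which leaves counting error out of reach. The labelled tissue was checked with 10 epithelial markers, of which none was at 0 in any mouse and whose summed level was 3039.7 to 3782 FPKM in Control, 2447 to 3644 FPKM in IgG and 2613 to 3304 FPKM in anti-A9 mice. Of these markers Krt18, a keratin of simple epithelium, rose in IgG mice, and Car1 and Slc26a3, of mature surface colonocytes, fell. All 3 changed in the opposite direction in anti-A9 against IgG mice. Slc26a3 was 200.1, 186 and 85.1 FPKM in the Control mice, 2.79, 29.9 and 8.26 in the IgG mice and 118, 139.6 and 233 in the anti-A9 mice, and Krt18 was 164, 240.2 and 256 FPKM in the Control mice, 596, 334 and 595 in the IgG mice and 177, 193 and 180.3 in the anti-A9 mice, and the part of the epithelial makeup in the levels of the family was not tested.

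TNF superfamily ligands are made as membrane proteins that form trimers and can be released by proteases, and each trimer draws receptor chains together. Receptors with a death domain can start apoptosis or inflammatory signaling, whereas most others bind TRAF adaptors and activate NF-kB and MAP kinases, and decoy receptors bind ligand without signaling. In the colon, Tnf is a main inflammatory cytokine of colitis, the lymphotoxins and the RANK system build lymphoid follicles, and BAFF and APRIL maintain B cells and plasma cells.

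The 250 bases upstream of the transcript start are shown for the members past the threshold in IgG against Control and for which RefSeq (GRCm38.p6) gave an entry, since many members of the family are known targets of NF-kB and AP-1. Capitals mark an NF-kB type core, written GGGNNNNNCC, or an AP-1 core, written TGANTCA, on either strand, and adjoining or overlapping matches form 1 run of capitals. Each sequence is printed 5′ to 3′ in the direction of its gene and ends next to the transcript start.
Tnf, chr17:35202008-35202257, minus strand: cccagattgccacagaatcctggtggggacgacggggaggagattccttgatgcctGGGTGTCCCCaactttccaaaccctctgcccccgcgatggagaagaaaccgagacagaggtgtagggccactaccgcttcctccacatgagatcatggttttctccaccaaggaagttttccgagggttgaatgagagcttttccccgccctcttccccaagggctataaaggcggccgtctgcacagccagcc
Tnfrsf12a, chr17:23677450-23677699, minus strand: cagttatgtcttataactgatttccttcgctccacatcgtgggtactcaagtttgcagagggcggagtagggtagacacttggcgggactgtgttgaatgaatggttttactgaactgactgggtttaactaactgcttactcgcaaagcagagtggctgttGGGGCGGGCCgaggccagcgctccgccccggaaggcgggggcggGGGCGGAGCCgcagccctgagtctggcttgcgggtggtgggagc
Tnfrsf1b, chr4:145246871-145247120, minus strand: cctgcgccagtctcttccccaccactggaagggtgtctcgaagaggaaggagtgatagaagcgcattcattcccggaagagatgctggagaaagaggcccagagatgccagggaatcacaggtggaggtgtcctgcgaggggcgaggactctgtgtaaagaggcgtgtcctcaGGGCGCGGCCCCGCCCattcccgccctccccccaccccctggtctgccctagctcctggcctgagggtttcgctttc
Tnfrsf8, chr4:145315165-145315414, minus strand: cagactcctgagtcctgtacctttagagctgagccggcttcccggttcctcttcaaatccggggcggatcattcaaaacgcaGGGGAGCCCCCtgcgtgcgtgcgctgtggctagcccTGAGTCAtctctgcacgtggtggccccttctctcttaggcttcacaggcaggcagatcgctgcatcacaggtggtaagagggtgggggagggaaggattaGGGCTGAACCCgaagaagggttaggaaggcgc
Tnfrsf23, chr7:143685876-143686125, minus strand: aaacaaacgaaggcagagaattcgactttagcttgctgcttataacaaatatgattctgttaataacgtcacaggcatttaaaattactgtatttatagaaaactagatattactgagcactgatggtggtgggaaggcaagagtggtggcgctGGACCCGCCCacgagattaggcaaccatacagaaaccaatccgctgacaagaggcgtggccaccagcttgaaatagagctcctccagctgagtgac
Tnfsf18, chr1:161494407-161494656, plus strand: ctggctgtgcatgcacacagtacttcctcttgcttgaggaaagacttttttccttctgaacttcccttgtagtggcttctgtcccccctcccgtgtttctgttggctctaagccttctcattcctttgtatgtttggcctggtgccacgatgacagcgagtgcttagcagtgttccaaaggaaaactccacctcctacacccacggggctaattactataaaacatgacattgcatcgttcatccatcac
The NF-kB type core was found in 5 of these 6 sequences, and the AP-1 core in that of Tnfrsf8. Over the family, 35 promoters of 32 members were in the table, and 25 of them (71.4%) held the NF-kB type core, which 45.8% of all 32851 promoters of the same length held. The AP-1 core was in 6 of the 35 (17.1%) and in 6.75% of all promoters. A stricter NF-kB consensus, chosen after the matches had been seen and searched on both strands (its matches are also matches of the NF-kB type core), was in 3 of the 35 (8.57%), those of Tnfrsf8, Tnfrsf9 and Ltb, and in 3.90% of all. A match describes letters only and not a bound site.

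In the comparison of IgG with Control mice, which asks how the family differed between AOM/DSS tumor tissue and normal mucosa, 8 of the 42 members rose and none fell at an adjusted p under 0.05. Of all 15278 genes tested, 8.18% rose and 3.01% fell by the same rule. The 8 were the ligands Tnf, Tnfsf9 and Tnfsf18 and the receptors Tnfrsf11b, Tnfrsf12a, Tnfrsf23, Tnfrsf1b and Tnfrsf8, and the count was 5 without Control replicate 2. Leaving aside Tnfsf18, which was tested only because of its level in the IgG mice, 7 rose in IgG against Control and 5 fell in anti-A9 against IgG. In limma at an unadjusted p under 0.05, 17 members differed, of which Tnfrsf11a, Tnfrsf13b and Tnfsf13 were lower, and 29.5% of all genes differed. The comparison of anti-A9 with IgG mice asks what differed between mice given the 2 antibodies, with tissue taken after the DSS cycles had ended. As the study calls the anti-A9 samples mucosa, the tissue sampled cannot be told apart from the antibody. In this comparison 6 members fell (Tnfrsf11b, Tnfrsf12a, Tnfrsf23, Tnfsf9, Tnfsf18 and Ltbr) and 3 rose (Tnfrsf11a, Tnfrsf14 and Tnfsf13b). Among all genes 14.4% fell and 6.72% rose in that comparison. The count of members that fell was 3 without anti-A9 replicate 2, and that of members that rose was 0 without any 1 of the anti-A9 mice and 6 without IgG replicate 2. By the threshold of the study, which is more than 2-fold change with an unadjusted p under 0.05, 11 members were higher and 2 lower in IgG against Control (8.43% and 5.19% of all genes), and 3 were higher and 9 lower in anti-A9 against IgG (7.64% and 8.38%). At the unadjusted p alone 15 members differed in anti-A9 against IgG, as did 39.1% of all genes. The mice of the 2 groups did not overlap for 14 members higher and 2 lower in IgG against Control (20.7% and 10.2% of all genes) and for 4 higher and 10 lower in anti-A9 against IgG (18.5% and 28.5%). Both comparisons use the same IgG mice, so they are not independent of each other. The medians of the log2 fold changes of the 41 members tested were 0.22 for IgG against Control and 0.13 for anti-A9 against IgG, beside 0.09 and -0.06 for all genes, and 23 members lay above 0 and 18 below 0 in each comparison. The share of all genes above 0 was not counted. Cd70, the ligand of Cd27, was not tested because its level reached 0.1 FPKM in fewer than 3 mice. Tnfsf18 and Tnfsf4 passed that filter only through the IgG mice, the group where they are high. Both are among the 17 and 15 members at the unadjusted p and the 11 higher by the threshold of the study. They are also among the 14 higher and 10 lower without overlap, and Tnfsf18 is among the 9 lower by the threshold of the study. Their part in these counts is a description and no support.

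**Figure D1:**
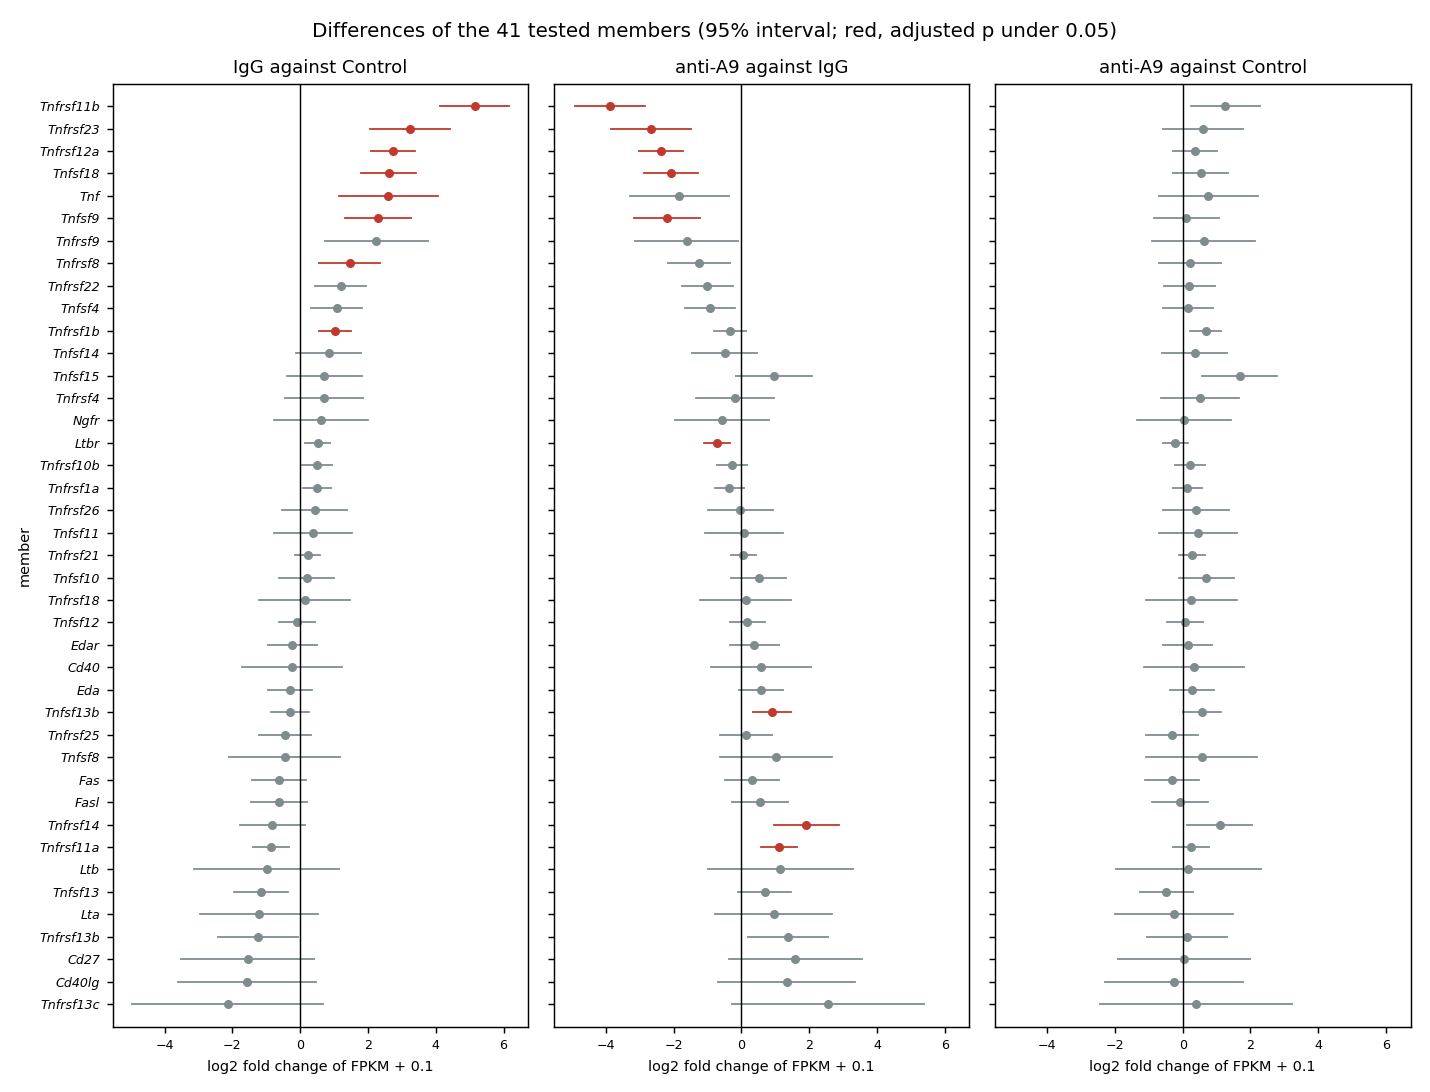
Log2 fold changes of FPKM + 0.1 (horizontal axis) for the 41 members tested (vertical axis, ordered by the comparison of IgG with Control) in the 3 comparisons. Points are fitted values, lines are 95% intervals and red marks an adjusted p under 0.05, which 8, 9 and 0 members had in the panels from left to right.

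Tnf itself, the founding inflammatory ligand, was 2.39, 0.390 and 2.17 FPKM in the Control mice, 12.4, 9.35 and 5.06 in the IgG mice and 3.13, 1.32 and 2.85 in the anti-A9 mice. All 3 IgG mice lay above all mice of the other groups, and Control replicate 2 was the lowest. Tnf rose in IgG mice (log2 fold change 2.59, SE 0.64, adjusted p = 0.0358) and missed the threshold in anti-A9 against IgG (log2 fold change -1.83, SE 0.64, adjusted p = 0.0709). The rise was not past the threshold without Control replicate 1 or 2, IgG replicate 1 or 2 or anti-A9 replicate 1 or 3, with adjusted p-values of 0.0512 to 0.103, and without Control replicate 2 the adjusted p in anti-A9 against IgG was 0.0300. In limma with only the 2 groups fitted, the adjusted p was 0.0834 in IgG against Control and 0.0347 in anti-A9 against IgG. Tnf passed the threshold under 11 of the 18 alternatives in the former comparison and under 4 in the latter. By the threshold of the study Tnf was higher in the former and lower in the latter, where the unadjusted p in limma was 0.0193. The study reports a significant decrease of Tnf there by its own test. In tissue RNA, more cells of a type and more RNA per cell cannot be told apart, for Tnf and for every member below. Its ubiquitous death domain receptor Tnfrsf1a was 29.5, 36.8 and 37.2 FPKM in the Control mice, 37.8, 50.1 and 59.7 in the IgG mice and 39.7, 40.6 and 33.4 in the anti-A9 mice, and the TRAF-binding receptor Tnfrsf1b, found mainly on leukocytes and endothelium, was 15.3, 9.82 and 10.5 FPKM in the Control mice, 24.5, 28.5 and 19.1 in the IgG mice and 20.2, 17.5 and 18.5 in the anti-A9 mice. Every IgG mouse lay above every Control mouse for both receptors, and for Tnfrsf1b every anti-A9 mouse did so too. Tnfrsf1b rose in IgG mice (log2 fold change 1.02, SE 0.21, adjusted p = 0.0173), with an adjusted p of 0.0701 without Control replicate 2, whereas Tnfrsf1a did not pass the test (log2 fold change 0.49, SE 0.19, adjusted p = 0.119) except without IgG replicate 1 (adjusted p = 0.0464). Neither receptor passed it in anti-A9 against IgG, where the 95% intervals of the log2 fold change were -0.78 to 0.07 for Tnfrsf1a and -0.81 to 0.12 for Tnfrsf1b.

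**Figure D2:**
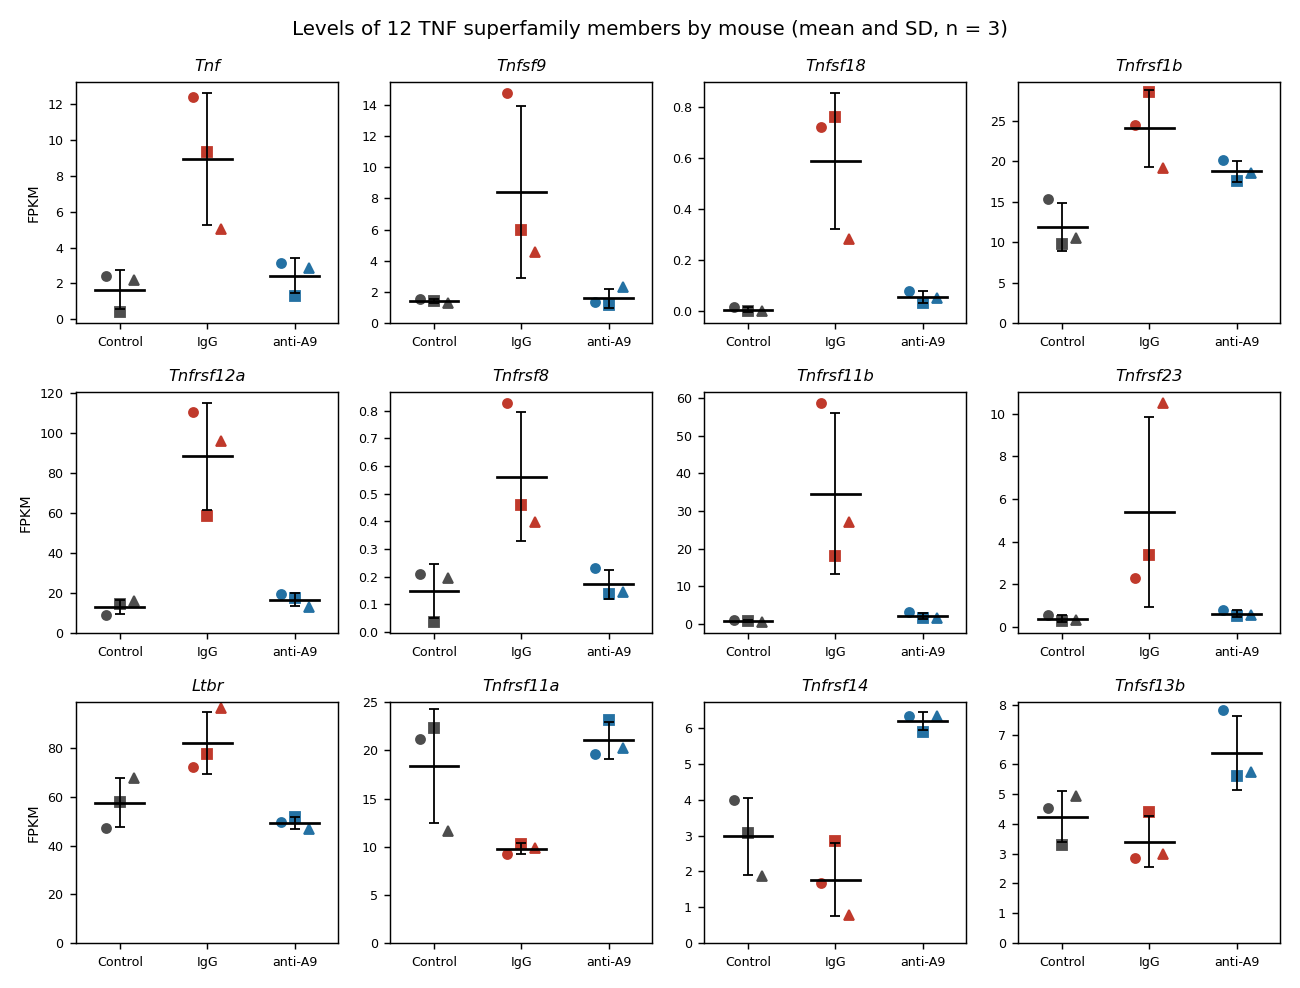
FPKM (vertical axis, starting at or just under 0) of the 12 members with an adjusted p under 0.05 in IgG against Control or anti-A9 against IgG, by group (horizontal axis). Points are mice (circle, square and triangle for replicates 1, 2 and 3), horizontal lines are group means and bars are SDs (n = 3). The IgG mice stand above both other groups in the first 2 rows except for Tnfrsf1b, where IgG replicate 3 at 19.1 FPKM lies below anti-A9 replicate 1 at 20.2 FPKM.

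Tnfrsf12a, also called Fn14, a small receptor that is induced in injured and regenerating tissue, was among the members with the highest levels in IgG mice. It was 9.06, 14.3 and 15.9 FPKM in the Control mice, 110.5, 58.6 and 95.8 in the IgG mice and 19.3, 17.4 and 13.2 in the anti-A9 mice. No IgG mouse came near the others, and the Control and anti-A9 mice overlapped. The receptor rose in IgG mice (log2 fold change 2.73, SE 0.29, adjusted p = 0.00133) and fell in anti-A9 against IgG mice (log2 fold change -2.37, SE 0.29, adjusted p = 0.00371), and it passed the threshold in both comparisons under all 18 alternatives, with log2 fold changes of 2.49 to 3.00 in IgG against Control. Its share of the family's summed FPKM was 3.13% to 6.04% in Control, 13.9% to 25.3% in IgG and 4.12% to 6.46% in anti-A9 mice. The ligand Tnfsf12, known as TWEAK, was 7.55, 10.8 and 12.3 FPKM in the Control mice, 7.32, 9.16 and 12.2 in the IgG mice and 9.84, 11.2 and 10.8 in the anti-A9 mice, with all groups overlapping and a 95% interval of the log2 fold change of -0.63 to 0.43 in IgG against Control. The ratio of Tnfrsf12a to Tnfsf12 within a mouse, chosen after the values had been seen and given without a test, was 1.20, 1.32 and 1.29 in the Control mice, 15.1, 6.39 and 7.84 in the IgG mice and 1.96, 1.56 and 1.22 in the anti-A9 mice.

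The RANK system held the largest rise of the family. Tnfrsf11b encodes osteoprotegerin, a secreted decoy for the RANK ligand, and was 1.11, 0.751 and 0.548 FPKM in the Control mice, 58.6, 18.1 and 27.2 in the IgG mice and 3.07, 1.69 and 1.52 in the anti-A9 mice. Every IgG mouse was far above every other mouse, IgG replicate 1 was the highest, and every anti-A9 mouse was above every Control mouse. It rose in IgG mice (log2 fold change 5.14, SE 0.45, adjusted p = 0.000664) and fell in anti-A9 against IgG mice (log2 fold change -3.88, SE 0.45, adjusted p = 0.00312), also under all 18 alternatives, with log2 fold changes of 4.15 to 5.52 in IgG against Control. The ligand Tnfsf11 (RANKL), which drives osteoclasts and lymphoid organ formation, was 1.61, 0.694 and 2.34 FPKM in the Control mice, 1.54, 2.39 and 1.70 in the IgG mice and 2.34, 0.966 and 3.24 in the anti-A9 mice. Its groups overlapped, and the 95% interval of its log2 fold change was -0.77 to 1.54 in IgG against Control. The signaling receptor Tnfrsf11a (RANK) ran the other way and was 21.2, 22.4 and 11.6 FPKM in the Control mice, 9.20, 10.3 and 9.83 in the IgG mice and 19.6, 23.2 and 20.3 in the anti-A9 mice. The IgG mice were the lowest 3 of the 9 and lay within 9.20 to 10.3 FPKM. Tnfrsf11a rose in anti-A9 against IgG mice (log2 fold change 1.10, SE 0.23, adjusted p = 0.0182) and just missed the threshold in IgG against Control (log2 fold change -0.85, SE 0.23, adjusted p = 0.0503). Without any 1 of the anti-A9 mice its adjusted p in anti-A9 against IgG was 0.0525 to 0.0694, and without Control replicate 3 that in IgG against Control was 0.00598. The ratio of the decoy to the ligand within a mouse, chosen after the values had been seen and given without a test, was 0.688, 1.08 and 0.234 in the Control mice, 38.1, 7.57 and 16.0 in the IgG mice and 1.31, 1.75 and 0.469 in the anti-A9 mice, and that of the decoy to the receptor was 0.0521, 0.0336 and 0.0471 in the Control mice, 6.37, 1.76 and 2.77 in the IgG mice and 0.156, 0.0728 and 0.0749 in the anti-A9 mice. The decoy exceeded the ligand in 1 of 3 Control, all 3 IgG and 2 of 3 anti-A9 mice, and it exceeded the receptor only in the IgG mice.

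**Figure D3:**
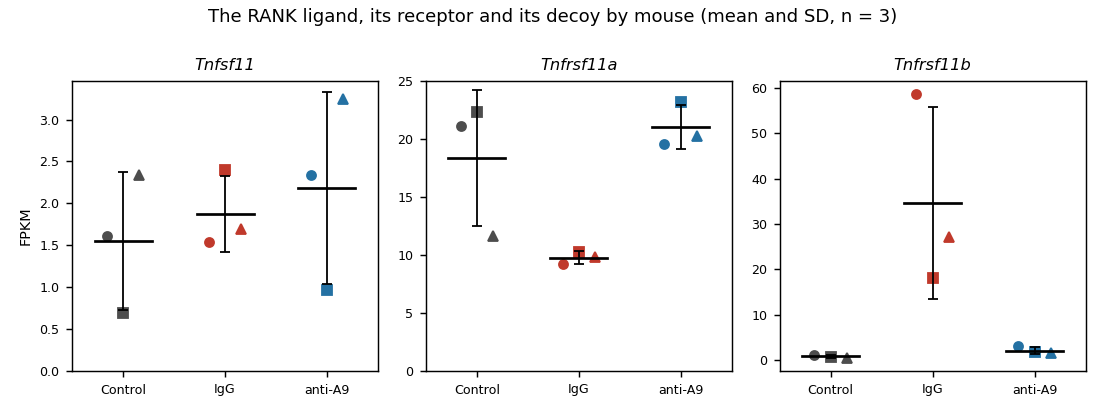
FPKM (vertical axes, with their own scales) of the ligand Tnfsf11, its receptor Tnfrsf11a and the decoy Tnfrsf11b by group (horizontal axis). Points are mice (circle, square and triangle for replicates 1, 2 and 3), lines are means and bars SDs (n = 3). In IgG mice the receptor lies between 9.20 and 10.3 FPKM and the decoy between 18.1 and 58.6 FPKM.

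Of the costimulatory pairs, which tune activated T cells, the ligand Tnfsf9 and the receptor Tnfrsf8 rose in IgG mice, and Tnfsf9 fell in anti-A9 against IgG mice. Tnfsf9 (4-1BB ligand) was 1.58, 1.42 and 1.27 FPKM in the Control mice, 14.7, 5.97 and 4.55 in the IgG mice and 1.37, 1.14 and 2.30 in the anti-A9 mice, and its receptor Tnfrsf9 (4-1BB) was 0.369, 0.0665 and 0.531 FPKM in the Control mice, 2.65, 1.98 and 0.820 in the IgG mice and 0.852, 0.156 and 0.647 in the anti-A9 mice. The IgG mice were above both other groups for Tnfsf9, and for Tnfrsf9 IgG replicate 3 lay within the range of the anti-A9 mice. Tnfsf9 rose in IgG mice (log2 fold change 2.30, SE 0.43, adjusted p = 0.0128) and fell in anti-A9 against IgG mice (log2 fold change -2.20, SE 0.43, adjusted p = 0.0143), where the adjusted p was 0.0531 without anti-A9 replicate 1 and 0.0590 without replicate 2. Tnfrsf9 did not pass the test in IgG against Control (log2 fold change 2.24, SE 0.67, adjusted p = 0.0636). Annotated genes on the opposite strand overlap both, Gm11110 for Tnfsf9 and Camta1 for Tnfrsf9, and whether the authors counted by strand is not given in the sources used here.

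Tnfsf18 (GITR ligand), which endothelium and antigen-presenting cells make, was 0.0175, 0 and 0 FPKM in the Control mice, 0.721, 0.760 and 0.281 in the IgG mice and 0.0794, 0.0323 and 0.0501 in the anti-A9 mice. Its level was low throughout, listed at 0 in 2 Control mice, and every IgG mouse was above every other mouse. Because it reached 0.1 FPKM in the IgG mice alone, it entered the test only through the group where it is high and had to differ, so the fitted values are a description and no support (log2 fold change 2.61, SE 0.36, adjusted p = 0.00367 in IgG against Control and log2 fold change -2.08, SE 0.36, adjusted p = 0.01 in anti-A9 against IgG). Their size depends on the added 0.1 FPKM, and without any 1 IgG mouse it failed the filter and was not tested. The receptor Tnfrsf18 (GITR), high on regulatory T cells, was 1.48, 0.825 and 4.01 FPKM in the Control mice, 1.19, 3.40 and 1.65 in the IgG mice and 3.31, 1.35 and 1.99 in the anti-A9 mice, with overlapping groups. Tnfsf4 (OX40 ligand), whose gene lies 76.2 kb from Tnfsf18 on chromosome 1, was 0.0807, 0.0233 and 0.0654 FPKM in the Control mice, 0.366, 0.176 and 0.170 in the IgG mice and 0.109, 0.0371 and 0.0773 in the anti-A9 mice, and its IgG mice were also the highest 3. It did not pass the test (log2 fold change 1.08, SE 0.33, adjusted p = 0.0676), and its receptor Tnfrsf4 (OX40) was 1.41, 0.664 and 3.47 FPKM in the Control mice, 2.30, 3.26 and 2.11 in the IgG mice and 3.01, 1.61 and 2.16 in the anti-A9 mice. The lymphocyte activation receptor Tnfrsf8 (CD30) was 0.211, 0.0358 and 0.195 FPKM in the Control mice, 0.827, 0.460 and 0.398 in the IgG mice and 0.233, 0.137 and 0.146 in the anti-A9 mice, with the 3 IgG mice above the rest. It rose in IgG mice only at the edge of the threshold (log2 fold change 1.46, SE 0.40, adjusted p = 0.04996), and it missed the threshold when any 1 of the 9 mice was left out (adjusted p 0.0578 to 0.143). In anti-A9 against IgG it missed the threshold, but it passed under 5 of the 17 alternative settings that tested it (lowest adjusted p 0.0409). Its ligand Tnfsf8 was 0.946, 0.109 and 0.616 FPKM in the Control mice, 0.272, 0.801 and 0.0805 in the IgG mice and 1.13, 0.428 and 0.669 in the anti-A9 mice, and the groups overlapped.

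Regulatory T cell markers were read beside these pairs. None of 4 (Foxp3, Ctla4, Il2ra and Ikzf2) passed the threshold in IgG against Control, and Ikzf2 rose in anti-A9 against IgG. Their summed level was 2.15 to 5.37 FPKM in Control, 4.08 to 6.39 FPKM in IgG and 5.28 to 6.22 FPKM in anti-A9 mice. No marker of the list was at 0, and the part of these cells in the costimulatory levels was not tested.

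Members of the TRAIL branch include mouse decoy receptors. Tnfrsf23, a decoy for TRAIL, was 0.572, 0.265 and 0.319 FPKM in the Control mice, 2.32, 3.36 and 10.5 in the IgG mice and 0.805, 0.514 and 0.532 in the anti-A9 mice, and its neighbour Tnfrsf22, another TRAIL decoy, was 0.504, 0.656 and 0.608 FPKM in the Control mice, 2.40, 1.07 and 1.23 in the IgG mice and 0.726, 0.519 and 0.843 in the anti-A9 mice. For both, every IgG mouse was above every other mouse, with IgG replicate 3 highest for Tnfrsf23 and replicate 1 highest for Tnfrsf22. Tnfrsf23 rose in IgG mice (log2 fold change 3.25, SE 0.52, adjusted p = 0.00729) and fell in anti-A9 against IgG mice (log2 fold change -2.66, SE 0.52, adjusted p = 0.0144), the latter with an adjusted p of 0.0582 without anti-A9 replicate 2. Tnfrsf22 narrowly missed the threshold in IgG against Control (log2 fold change 1.20, SE 0.33, adjusted p = 0.0507) and had an adjusted p of 0.0363 there and of 0.0439 in anti-A9 against IgG without IgG replicate 2. These receptors and Tnfrsf26, which ranged from 0.255 to 1.00 FPKM, are similar copies beside each other on chromosome 7, and an antisense gene, E230032D23Rik, overlaps all 3, so the split of reads between them is uncertain. The ligand Tnfsf10 (TRAIL) was 3.60, 2.35 and 2.14 FPKM in the Control mice, 3.59, 4.53 and 1.68 in the IgG mice and 4.02, 4.09 and 4.92 in the anti-A9 mice, and the death receptor Tnfrsf10b was 2.63, 3.70 and 2.96 FPKM in the Control mice, 4.77, 4.19 and 4.18 in the IgG mice and 3.16, 4.22 and 3.47 in the anti-A9 mice. Every IgG mouse was above every Control mouse for Tnfrsf10b, but neither gene passed the test in any comparison, with adjusted p-values of 0.755 and 0.132 in IgG against Control.

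The other death domain receptors and their ligands did not pass the test in any comparison. Fas, the receptor that starts apoptosis on Fasl, lay between 2.31 and 8.27 FPKM and Fasl between 0.0380 and 0.285 FPKM, and both were overlapping between groups. Tnfrsf21 (death receptor 6) was 18.4, 17.8 and 13.1 FPKM in the Control mice, 18.0, 18.7 and 20.0 in the IgG mice and 21.0, 21.4 and 17.1 in the anti-A9 mice, a narrow range over all 9 mice. Ngfr, the low-affinity neurotrophin receptor, was 10.9 FPKM in IgG replicate 1 and 1.66 to 3.18 FPKM in all other mice. The ectodermal pair Eda and Edar, which shapes hair and glands, stayed at or under 0.519 FPKM and 0.257 FPKM. Every anti-A9 mouse was above every IgG and Control mouse for Eda, which did not pass the test in anti-A9 against IgG (log2 fold change 0.58, SE 0.28, adjusted p = 0.159).

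The lymphotoxin branch had the highest levels of the family outside the IgG mice. Ltb, the membrane anchor of the lymphotoxin heterotrimer, was 55.2, 9.75 and 93.4 FPKM in the Control mice, 16.9, 52.0 and 7.32 in the IgG mice and 60.0, 18.6 and 63.1 in the anti-A9 mice, and Lta, the soluble subunit, was 3.86, 0.756 and 4.80 FPKM in the Control mice, 0.630, 2.33 and 0.654 in the IgG mice and 3.30, 0.949 and 2.63 in the anti-A9 mice. Both spread widely within each group, and the groups overlapped. Their receptor Ltbr, found on epithelium and stroma, was 47.4, 58.0 and 67.7 FPKM in the Control mice, 72.3, 77.8 and 96.6 in the IgG mice and 49.5, 51.6 and 46.7 in the anti-A9 mice. Its IgG mice were the highest 3 and its anti-A9 mice lay close together. Ltbr fell in anti-A9 against IgG mice (log2 fold change -0.73, SE 0.17, adjusted p = 0.0215) and did not pass the test in IgG against Control (log2 fold change 0.51, SE 0.17, adjusted p = 0.08) except without Control replicate 3 (adjusted p = 0.0450), and without IgG replicate 3 or any 1 of the anti-A9 mice the adjusted p in anti-A9 against IgG was 0.0597 to 0.0696. Tnfrsf14 (HVEM), which can send activating or inhibiting signals, was 4.01, 3.07 and 1.87 FPKM in the Control mice, 1.68, 2.84 and 0.786 in the IgG mice and 6.34, 5.90 and 6.35 in the anti-A9 mice. All 3 anti-A9 mice were above the other 6. Tnfrsf14 rose in anti-A9 against IgG mice (log2 fold change 1.92, SE 0.43, adjusted p = 0.0202), but without any 1 of the anti-A9 mice the adjusted p was 0.0597 to 0.0672. The ligand Tnfsf14 (LIGHT), which binds Ltbr and Tnfrsf14, was 0.854, 0.334 and 0.778 FPKM in the Control mice, 1.61, 1.41 and 0.725 in the IgG mice and 0.915, 0.538 and 1.09 in the anti-A9 mice, with overlapping groups. Tnfsf15 (TL1A), a ligand linked to bowel inflammation, was 0.179, 0.130 and 0.0309 FPKM in the Control mice, 0.411, 0.330 and 0.0695 in the IgG mice and 0.830, 0.522 and 0.376 in the anti-A9 mice, and its receptor Tnfrsf25 (death receptor 3) was 2.12, 1.31 and 2.75 FPKM in the Control mice, 1.70, 1.72 and 0.975 in the IgG mice and 1.73, 1.25 and 1.79 in the anti-A9 mice. For Tnfsf15 every anti-A9 mouse was above every Control mouse, and neither gene passed the test in any comparison.

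In the B cell survival branch no member passed the test in IgG against Control, and the ligand Tnfsf13b rose in anti-A9 against IgG mice. Tnfsf13b (BAFF) was 4.52, 3.28 and 4.94 FPKM in the Control mice, 2.84, 4.40 and 2.99 in the IgG mice and 7.84, 5.60 and 5.74 in the anti-A9 mice, and Tnfsf13 (APRIL) was 19.5, 20.5 and 21.5 FPKM in the Control mice, 4.84, 14.7 and 10.6 in the IgG mice and 12.8, 17.9 and 13.8 in the anti-A9 mice. For Tnfsf13b the anti-A9 mice were the highest 3, and for Tnfsf13 the Control mice were. Tnfsf13b rose in anti-A9 against IgG mice (log2 fold change 0.90, SE 0.25, adjusted p = 0.0355), but without IgG replicate 1 or 3 or any 1 of the anti-A9 mice the adjusted p was 0.0735 to 0.124. Tnfsf13 did not pass the test in IgG against Control (log2 fold change -1.16, SE 0.35, adjusted p = 0.0641). Its gene lies 0.465 kb from Tnfsf12, the transcript Tnfsfm13 spans both and the antisense Tnfsf13os overlaps them, so their levels are uncertain where reads are shared. The receptor Tnfrsf13b (TACI) was 8.66, 3.83 and 9.12 FPKM in the Control mice, 1.65, 6.55 and 1.96 in the IgG mice and 9.10, 5.79 and 7.46 in the anti-A9 mice, and Tnfrsf13c (BAFF receptor) was 9.70, 1.36 and 15.0 FPKM in the Control mice, 0.353, 7.77 and 0.604 in the IgG mice and 12.5, 2.40 and 15.8 in the anti-A9 mice. IgG replicates 1 and 3 were the lowest of all mice for both receptors, IgG replicate 2 lay within the range of the other groups, and neither passed the test (adjusted p 0.151 and 0.283 in IgG against Control, 0.0894 and 0.162 in anti-A9 against IgG). Without IgG replicate 2 the adjusted p of Tnfrsf13b was 0.0195 and 0.0138 in the same 2 comparisons, that of Tnfsf13 was 0.0184 and 0.0477, and that of Tnfrsf13c was 0.0394 in anti-A9 against IgG.

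Some members associated with lymphocytes, chosen here after their values had been seen, differed widely between mice of the same group. The highest mouse of a group exceeded the lowest by 3.39 to 9.58 times for Ltb and by 6.57 to 22.0 times for Tnfrsf13c. For Cd27, the receptor of memory T and B cells, it did so by 3.44 to 7.57 times. The range of 1.57 to 3.97 times for Tnfrsf13b overlapped those of Ltb and Cd27, and that of Tnfrsf25 was 1.43 to 2.10 times. Ltbr, which is found on epithelium and stroma, had 1.11 to 1.43 times. A wide spread was not particular to the members chosen. The range was 1.58 to 6.47 times for Ngfr, 2.38 to 6.13 times for Tnf and 2.21 to 5.91 times for Tnfsf15. Of the 42 members, Control replicate 2 had the lowest level of its group for 23, anti-A9 replicate 2 for 29, IgG replicate 1 for 20 and IgG replicate 3 for 18, whereas IgG replicate 2 was the highest of its group for 22. The same counts were not made over all genes, so this order is not shown to be particular to the family. The summed level of 6 B cell markers was 134, 26.7 and 248 FPKM in the Control mice, 8.04, 113 and 13.0 in the IgG mice and 193, 51.9 and 211 in the anti-A9 mice, and that of 7 T cell markers was 44.1, 9.96 and 64.6 FPKM in the Control mice, 22.3, 34.7 and 9.16 in the IgG mice and 52.2, 30.1 and 55.2 in the anti-A9 mice. None of the B cell markers and none of the T cell markers was at 0 in any mouse, and none of the former changed in either comparison, while of the T cell markers Cd4 alone rose in anti-A9 against IgG. The low mice of the B cell markers were the low mice of Ltb and Tnfrsf13c in the Control and anti-A9 groups, and in the IgG group replicates 1 and 3 were low for all 3. Cd40, the receptor that helper T cells engage on B cells, lay between 0.541 and 2.79 FPKM, Cd40lg between 0 and 1.02 FPKM with a 0 in IgG replicates 1 and 3, and Cd70 between 0 and 0.328 FPKM with a 0 in 6 mice. The number of follicles in a sample, and its part in these levels, was not tested.

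**Figure D4:**
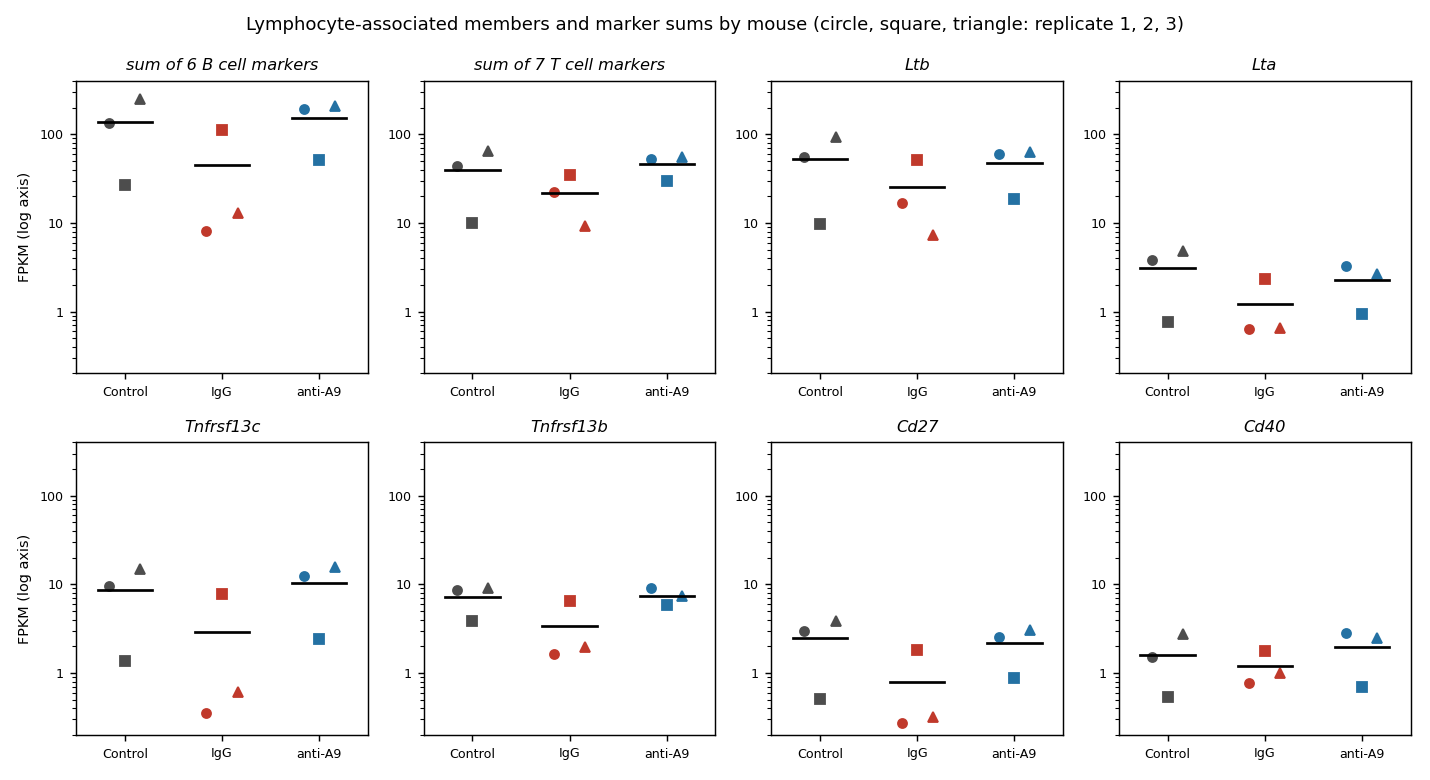
FPKM on a log axis (vertical) of Ltb, Lta, Tnfrsf13c, Tnfrsf13b, Cd27 and Cd40 beside the summed FPKM of 6 B cell and 7 T cell markers, by group (horizontal axis). Points are mice (circle, square and triangle for replicates 1, 2 and 3) and lines are arithmetic means (n = 3). Control replicate 2, anti-A9 replicate 2 and IgG replicates 1 and 3 lie low in the B cell marker panel, at 26.7, 51.9, 8.04 and 13.0 FPKM, and low again in the panels of Tnfrsf13c and Cd27.

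In anti-A9 against Control, no member passed the adjusted threshold in limma, the lowest adjusted p being 0.301, while 0.00655% of all genes rose and 0.00655% fell. At an unadjusted p under 0.05, 5 members differed (Tnfrsf11b, Tnfrsf14, Tnfrsf1b, Tnfsf13b and Tnfsf15), as did 16% of all genes, and each of the 5 was higher in anti-A9 mice. By the threshold of the study 3 of them were higher (Tnfrsf11b, Tnfrsf14 and Tnfsf15) and none was lower, beside 2.28% and 0.864% of all genes. The log2 fold changes were 1.26 for Tnfrsf11b (95% interval 0.24 to 2.29) and 1.68 for Tnfsf15 (95% interval 0.56 to 2.79). Those of Tnf and Tnfrsf12a had 95% intervals of -0.70 to 2.22 and -0.29 to 1.02, which leave room for differences in either direction. The median log2 fold change of the 41 members tested was 0.26, beside 0.04 for all genes, and 34 members lay above 0 and 7 below 0. How many of all genes lay above 0 was not counted, so this direction is not shown to be particular to the family. Of the 42 members, 8 had every anti-A9 mouse above every Control mouse (17.3% of all genes did) and 1, Tnfsf13, had every anti-A9 mouse below (13.7% of all genes).

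**Figure D5:**
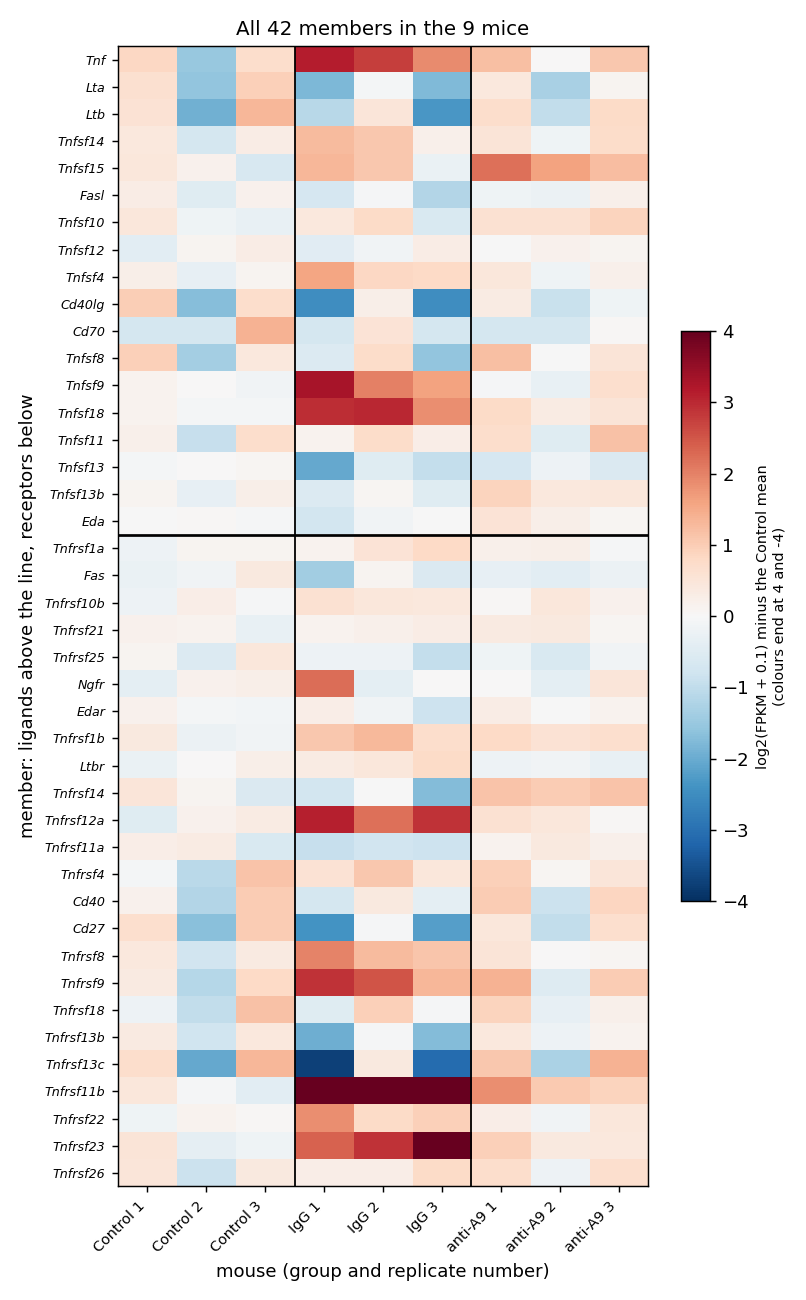
Log2(FPKM + 0.1) of each of the 42 members (vertical axis, ligands above the line and receptors below) in each mouse (horizontal axis), minus the mean of the 3 Control mice. Colours run from blue (lower) to red (higher) and end at -4 and 4. Tnfrsf11b, Tnfrsf12a, Tnfrsf23, Tnf, Tnfsf9 and Tnfsf18 are red in all 3 IgG mice, and Tnfrsf13c, Cd27 and Cd40lg are blue in IgG replicates 1 and 3.

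Downstream of the receptors, a list of 42 adaptor, caspase and NF-kB genes and a list of 22 genes that TNF is known to induce were read, both chosen with earlier results known. Of the 42, 2 rose in IgG mice, Rela (log2 fold change 0.61, SE 0.16, adjusted p = 0.0429), which encodes the p65 subunit of NF-kB, and the adaptor Traf4 (log2 fold change 1.08, SE 0.24, adjusted p = 0.0262), and the NF-kB inhibitor Tnip1 fell (log2 fold change -0.70, SE 0.14, adjusted p = 0.0191). The list's median log2 fold change was 0.13, beside 0.09 over all genes. The share of the list that rose, 4.76%, was below the 8.18% of all genes, and the share that fell was 2.38%, beside 3.01%. In anti-A9 against IgG 5 of the 42 fell (11.9%, beside 14.4% of all genes), Rela (log2 fold change -0.65, SE 0.16, adjusted p = 0.0263), Traf4 (log2 fold change -1.32, SE 0.24, adjusted p = 0.0126), Nfkbib, Rbck1 and Tab1, and none rose, at a median of 0.06 beside -0.06 over all genes. Traf4, which was 26.5, 31.2 and 40.3 FPKM in the Control mice, 96.9, 52.2 and 62.5 in the IgG mice and 26.3, 31.3 and 24.7 in the anti-A9 mice, was highest in the 3 IgG mice. Of the 22 TNF-inducible genes, 7 rose in IgG mice (Cxcl1, Cxcl2, Il1b, Il6, Lif, Sele and Tnfaip2) and none fell (31.8% and 0%, beside 8.18% and 3.01% of all genes), at a median of 0.67. In anti-A9 against IgG 6 fell (Cxcl1, Cxcl2, Il1b, Il6, Lif and Junb) and Vcam1, an adhesion molecule of endothelium, rose (log2 fold change 1.30, SE 0.34, adjusted p = 0.0296). These were 27.3% and 4.55% of the list, beside 14.4% and 6.72% of all genes, and the list's median of -0.10 was close to the -0.06 of all genes. Il6, counted in both comparisons, was 0.110, 0.573 and 0.293 FPKM in the IgG mice and under 0.1 FPKM in every other mouse. It entered the test only through the group where it is high, so its calls are a description and no support. The neutrophil chemokine Cxcl1 was 0.868, 0.294 and 0.374 FPKM in the Control mice, 28.1, 7.56 and 12.6 in the IgG mice and 2.80, 3.02 and 3.41 in the anti-A9 mice, and the interleukin-6 type cytokine Lif was 0.763, 0.625 and 0.612 FPKM in the Control mice, 3.16, 2.06 and 2.43 in the IgG mice and 0.885, 0.654 and 0.643 in the anti-A9 mice. Both were highest in the 3 IgG mice. Cxcl2, another neutrophil chemokine, was listed at 0 in all 3 Control mice and was 5.56, 3.16 and 5.42 FPKM in the IgG mice and 0.106, 0.194 and 0.181 FPKM in the anti-A9 mice. The feedback inhibitors Nfkbia (58.5, 47.4 and 69.1 FPKM in the Control mice, 59.8, 72.8 and 49.7 in the IgG mice and 61.6, 52.3 and 73.5 in the anti-A9 mice) and Tnfaip3 (11.8, 6.77 and 7.02 FPKM in the Control mice, 9.83, 10.8 and 7.01 in the IgG mice and 13.4, 10.7 and 14.5 in the anti-A9 mice), which TNF is also known to induce, overlapped between the groups. No gene of either list passed the threshold in anti-A9 against Control.

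Markers of other cell types moved in the same comparisons as these members. Of 7 neutrophil markers, 6 rose in IgG mice and 5 fell in anti-A9 against IgG mice, and their summed level was 92.8 to 123 FPKM in Control, 159 to 705 FPKM in IgG and 104 to 181 FPKM in anti-A9 mice. Ly6g, which did not pass the threshold, made up 88.8 to 117 FPKM of the Control sums and was 26.1, 96.0 and 95.2 FPKM in the IgG mice. The list holds S100a9, the target of the antibody, and S100a8, which pairs with it. In the IgG mice S100a9 was 63.1, 173 and 267 FPKM and S100a8 was 35.7, 141 and 242 FPKM. Of 7 fibroblast markers, 4 rose and 3 fell, with sums of 418 to 501, 622 to 2099.7 and 564 to 742 FPKM in the same order. Of 6 squamous epithelium markers, 5 of them tested, 3 rose and 4 fell, with sums of 2.29 to 3.25, 9.62 to 50.1 and 1.75 to 4.17 FPKM. Within the IgG group replicate 1 had the highest squamous sum and replicate 2 the lowest, as for Tnfrsf11b and Tnfrsf12a. Other orders were seen for the neutrophil sums (159, 461 and 705 FPKM in IgG replicates 1, 2 and 3) and the fibroblast sums (622, 2099.7 and 1515 FPKM). Tnfrsf23 was highest in IgG replicate 3, and Tnf and Tnfsf9 were lowest there within the group. Trp63 was at 0 in at least 1 mouse and no marker of the neutrophil or fibroblast list was. Of 7 macrophage markers none passed the threshold, and 3 of 4 adipocyte markers fell in IgG against Control, from sums of 34.8 to 154 FPKM to 0 to 13.8 FPKM. The adipocyte sum was also low in the anti-A9 mice, at 0.0944 to 1.22 FPKM. No adipocyte marker passed the threshold in anti-A9 against Control, at a median log2 fold change of -5.75. The part of any of these cell types in the levels of the family was not tested.

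Several members lie close to each other in the genome. On chromosome 17 Tnf (GRCm38, 35199381 to 35202007) lies 3.06 kb from Ltb and 1.16 kb from Lta, and of the 3 Tnf alone rose in IgG mice. Further along the same chromosome Tnfsf9 (57105325 to 57107757) is followed after 38.2 kb by Cd70 and after another 39.7 kb by Tnfsf14, and of these Tnfsf9 alone passed the test. Tnfrsf1b (145213463 to 145246870) and Tnfrsf8 (145267137 to 145315164), which both rose, are 20.3 kb apart on chromosome 4. On chromosome 6 Ltbr (125306571 to 125313885), which fell in anti-A9 against IgG mice, lies between Cd27 and Tnfrsf1a, neither of which passed the test. Tnfrsf12a (17, 23675445 to 23677468), Tnfrsf11b (15, 54250619 to 54278484) and Tnfrsf11a (1, 105780718 to 105847981) have no other member within 1 Mb.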

How the data were processed

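RNA of the colon of 9 mice was sequenced in the study, with 3 mice in each of the Control, IgG and anti-A9 groups given by the sample labels. The authors deposited 1 table per mouse with a decimal value for each of 21544 rows named by gene symbol. The deposited values were taken as FPKM from their form, because the unit is not given in the sources used here, and the depth behind them is unknown. The submitters' processing notes name TopHat, Cufflinks, HTSeq, DESeq and GRCm38 without roles or versions. The authors compared pairs of groups with DESeq, which needs counts. As the files hold FPKM and no counts, that test was not repeated.

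Repeated symbols were summed (46 rows, none of them a member), and log2(FPKM + 0.1) was fitted with limma 3.58.1 in R 4.3.3 (all 9 mice, 3 groups, intensity trend) for the 15278 genes that reached 0.1 FPKM in 3 or more mice. On this scale the fold change of a gene with low values comes out too small. All p-values are two-sided, and they were adjusted by Benjamini-Hochberg over all genes tested, with a threshold of 0.05. Tables and figures were made in Python 3.11.15 with matplotlib 3.10.9. Positions are from GENCODE M21 on GRCm38, and the build of the authors' annotation may differ. The labels call the samples biological replicates, mice were housed in groups, and which of them shared a cage is not given in the sources used here. No 2 files held the same values (0.00638% of the positive values, or fewer, were equal in any pair). The widely expressed genes Gapdh, Ppia and Rps18 reached only 0.755, 0.974 and 0.391 FPKM, so a value of 0 means only that a gene was listed at 0.

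The members and lists were chosen with earlier results of these data known. Values in every mouse were given for members with an adjusted p under 0.05 in any comparison, or past the threshold of the study (over 2-fold change with an unadjusted p under 0.05), for both sides of each ligand and receptor pair with such a member, and for members with a mean of at least 10 FPKM in a group; the other members were given by their range. Genes of the lists were named where they passed the threshold, and others were named after their values had been seen. The lists of dendritic cell, endothelial, follicle, plasma cell, smooth muscle, and enteric neuron and glia markers were also computed, and at most 1 gene of each passed the threshold in a comparison, except for 3 of 6 neuron and glia markers that rose in anti-A9 against IgG. Alternatives covered the threshold, the replicate block, the mice in the fit, the pseudocount, the filter, the scaling, the trend and leaving out each mouse. Protein sequences were not used here.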

Additional observations from a re-analysis of the deposited data

How the results depend on the processing

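Of the 18 alternatives tried beside the reported fit and the threshold of the study (over 2-fold change with an unadjusted p under 0.05), none turned the direction of a named member that had passed a threshold. Members that rose in IgG against Control numbered 5 with only the 2 groups fitted (8 as reported), and 5 to 8 when 1 mouse was left out. Members that fell in that comparison (0 as reported) numbered 2 by the threshold of the study, 1 with median-of-ratios scaling, 1 with quantile normalization and 0 to 2 when 1 mouse was left out. In anti-A9 against IgG, 0 to 6 rose (3 as reported) and 3 to 8 fell (6 as reported) when 1 mouse was left out. In anti-A9 against Control, 3 were higher by the threshold of the study and 0 as reported. Median-of-ratios scaling moved the median log2 fold change of all genes in IgG against Control from 0.09 to -0.01, and quantile normalization moved it to -0.03, after which Tnfrsf11a also passed the threshold there.

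Mice with the same replicate number were compared, and their deviations from the group means correlated at -0.19 to 0.25 across genes. The labels do not say whether the numbers pair the mice, and these correlations, with 3 mice per group, cannot decide it. With the replicate block, 8 members rose and 1 (Tnfsf13, adjusted p = 0.0456) fell in IgG against Control, 2 rose and 8 fell in anti-A9 against IgG, and none passed in anti-A9 against Control. Tnf (adjusted p = 0.0492) and Tnfrsf8 (adjusted p = 0.0413) were the added falls, and Tnfsf13b (adjusted p = 0.0559) was no longer past the threshold. The depth of the libraries is unknown, so what it limits for members under 1 FPKM, such as Tnfsf18 and Tnfrsf8, was not tested. Tests for counts could not be run on these values.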
